A study of Mus musculus with 6 samples.

Results

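The 9 neuropeptide genes Sst, Npy, Vip, Cck, Cartpt, Trh, Nts, Adcyap1 and Crh were taken by symbol from the 32285 mouse genes counted in 2 libraries of single brain nuclei, and all 9 were present in both. Each library paired RNA with chromatin accessibility (ATAC) in the same nuclei from C57BL/6J mice. Embryos had received piggyBac vectors by electroporation in utero into the progenitors of the ganglionic eminences. The question of the study was which neural lineage FOXR2, a transcription factor, transforms. The comparison made here is descriptive and asks in which nuclei the peptide genes were read.

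Both groups carried the same vectors: FOXR2 with a V5 tag and GFP under the ubiquitous CAG promoter, the luciferase Akaluc with GFP under CAG, and the PBase transposase. The Foxr2 p53LOF library also carried a PX330 plasmid with Cas9 and a guide RNA against Trp53, and the Foxr2 alone libraries are labelled with Foxr2 overexpression only, the study's methods giving a control guide RNA in the same plasmid. Only electroporated cells and their descendants hold the vectors, so neurons in these libraries can be host cells or cells that received the vectors. The labels do not say how many animals gave each library. Foxr2 p53LOF had 1 library, and Foxr2 alone had 1 library with counts analysed here and a replicate 2 of which only the peak list and barcodes were used. Genotype, library and the piece of brain sampled cannot be told apart in this design, so no test between genotypes was made. Intervals are exact 95% limits and cover counting error only. Nuclei of 1 library are not replicates of a genotype.

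The Foxr2 p53LOF library held 10379 barcodes with 96929539 UMIs (unique molecular identifiers, each standing for 1 captured RNA molecule), of which 8359 nuclei were kept, with a median of 5527 UMIs. The Foxr2 alone library held 10096 barcodes with 59719847 UMIs, of which 8316 nuclei were kept, with a median of 3637. Barcode sequences shared between the libraries numbered 140. Nuclei were clustered without the 9 genes and without the other peptide, receptor and processing genes described here, and clusters were named from marker lists. Neuron-like nuclei, with all 10 neuron markers raised in each of their clusters, numbered 2264 in Foxr2 p53LOF and 4246 in Foxr2 alone, at medians of 9924.5 and 7304 UMIs. The other classes of Foxr2 p53LOF were like oligodendrocyte precursors (OPC-like, 1273 nuclei), committed precursors (COP-like, 1181), oligodendrocytes (1525), immune cells (1803) and vessel cells (75), with an unnamed cluster 15 of 232 nuclei. The OPC-like name was not stable, since the cluster that held most of these nuclei was led by Hmga2, Col4a6 and Tnc among others, was named astrocyte-like with doublets kept, and stayed unnamed with stricter minimums and with fragment limits applied to peak counts as deposited. Those of Foxr2 alone were OPC-like (171), astrocyte-like (424), immune-like (424) and vessel-like (29), with an unnamed cluster 0 of 3018 shallow nuclei in which all 9 oligodendrocyte markers were raised.

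Neuropeptides are cut from larger precursors, stored in dense core vesicles and released to act on G protein-coupled receptors, usually more slowly than fast transmitters. In the forebrain they also serve as names for cell types, since interneurons born in the medial ganglionic eminence (MGE) include those that make somatostatin, and interneurons born in the caudal ganglionic eminence (CGE) include those that make VIP. A small group of somatostatin neurons with long axons is known to make Npy, the nitric oxide synthase Nos1 and the substance P receptor Tacr1 as well.

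The promoters of 5 members are shown because the chromatin data bear on them or are empty there. They run from 250 bases before to 50 bases after a RefSeq transcript start on GRCm38.p6, the sequence of the mm10 build used by the authors. Capitals mark the cyclic AMP response element TGACGTCA, or its shorter forms TGACG and CGTCA where the whole element was missing.
Sst, chr16:23890795-23891094, minus strand: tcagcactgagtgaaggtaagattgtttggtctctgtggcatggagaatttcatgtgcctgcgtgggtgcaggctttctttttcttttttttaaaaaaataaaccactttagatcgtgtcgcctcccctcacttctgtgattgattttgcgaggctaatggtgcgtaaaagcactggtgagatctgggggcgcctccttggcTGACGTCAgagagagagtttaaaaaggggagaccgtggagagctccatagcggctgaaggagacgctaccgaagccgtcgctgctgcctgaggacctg
Npy, chr6:49822460-49822759, plus strand: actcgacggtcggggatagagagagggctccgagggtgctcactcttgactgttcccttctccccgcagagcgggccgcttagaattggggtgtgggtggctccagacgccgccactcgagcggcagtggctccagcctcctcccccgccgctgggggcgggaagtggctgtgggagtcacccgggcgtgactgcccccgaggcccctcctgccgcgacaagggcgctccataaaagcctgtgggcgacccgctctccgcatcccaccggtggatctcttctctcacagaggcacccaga
Vip, chr10:5638968-5639267, plus strand: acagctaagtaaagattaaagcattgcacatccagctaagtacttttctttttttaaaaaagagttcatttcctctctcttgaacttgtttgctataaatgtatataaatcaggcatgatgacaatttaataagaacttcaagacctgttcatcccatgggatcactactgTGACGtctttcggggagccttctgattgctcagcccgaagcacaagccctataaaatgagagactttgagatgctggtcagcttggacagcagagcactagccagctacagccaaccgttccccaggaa
Cartpt, chr13:99900634-99900933, minus strand: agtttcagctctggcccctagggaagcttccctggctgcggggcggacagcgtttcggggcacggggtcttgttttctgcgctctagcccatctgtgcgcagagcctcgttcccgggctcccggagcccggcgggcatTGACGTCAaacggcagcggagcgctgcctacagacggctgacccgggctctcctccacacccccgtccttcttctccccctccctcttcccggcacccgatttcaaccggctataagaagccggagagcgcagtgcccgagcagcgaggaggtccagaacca
Nts, chr10:102490369-102490668, minus strand: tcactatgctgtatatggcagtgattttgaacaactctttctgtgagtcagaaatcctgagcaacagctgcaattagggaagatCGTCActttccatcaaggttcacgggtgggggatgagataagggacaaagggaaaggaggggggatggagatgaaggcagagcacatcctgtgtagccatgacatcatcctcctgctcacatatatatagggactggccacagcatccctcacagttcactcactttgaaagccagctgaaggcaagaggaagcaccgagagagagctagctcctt
The whole element reads the same on both strands and contains both short forms. It was found in 2 of the 8 members with a RefSeq promoter, Sst and Cartpt, and in 1.79% of 32851 promoters of the same length. A short form was found in 7 of the 8, all but Npy, and in 20.8% of all promoters. In Sst the element began 48 bases before the start, in Cartpt 112 bases before, and the short form in Vip began 79 bases before. These letters are a description and were not tested as sites of binding.

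In the neuron-like nuclei, Sst, Npy, Vip and Cck were lower in Foxr2 p53LOF than in Foxr2 alone and Adcyap1 was higher, each by more than 9-fold. Levels are in CPM, which is how many UMIs of a gene were read for every 1000000 UMIs in that class. A gene was called where it reached 10 CPM in at least 1 library and differed by 2-fold or more. Of the 6 members that reached 10 CPM, 4 were lower in Foxr2 p53LOF, beside 18.9% of 10603 genes, and 1 was higher, beside 13.4%. The neuron-like nuclei of the libraries fell into different clusters, since 1856 of the 2264 in Foxr2 p53LOF were in cluster 2, which held 6 nuclei of Foxr2 alone. OPC-like nuclei also differed in cluster, with 1179 of 1273 in cluster 6 in Foxr2 p53LOF and 169 of 171 in cluster 13 in Foxr2 alone, and immune-like nuclei were in clusters 4 and 9 against mostly 12.

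Sst encodes somatostatin, an inhibitory peptide. It was read at 17.0 CPM in Foxr2 p53LOF neuron-like nuclei (interval 15.4 to 18.7, 428 UMIs) and at 284.7 CPM in Foxr2 alone (279.0 to 290.6, 9412 UMIs), a log2 ratio of -4.07 (-4.21 to -3.93). Npy, which encodes neuropeptide Y, stood at 4.0 CPM (3.26 to 4.86) and 106.9 CPM (103.4 to 110.5), a log2 ratio of -4.74 (-5.04 to -4.45). Both intervals lay far from 0.

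Vip encodes vasoactive intestinal peptide, made by interneurons that mainly inhibit other interneurons. It stood at 1.15 CPM (0.770 to 1.65, 29 UMIs) in Foxr2 p53LOF and 31.5 CPM (29.6 to 33.5, 1042 UMIs) in Foxr2 alone, a log2 ratio of -4.78 (-5.36 to -4.25). Cck, the cholecystokinin gene, which pyramidal neurons of the cortex also transcribe, stood at 12.9 CPM (11.5 to 14.4) and 126.7 CPM (122.9 to 130.6), a log2 ratio of -3.30 (-3.47 to -3.13). Without the 10 nuclei richest in Vip the ratio was -4.74, but the level in Foxr2 alone fell to 8.52 CPM, under the minimum.

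Adcyap1 encodes PACAP, a peptide of the VIP family that acts on the receptor Adcyap1r1. It stood at 39.6 CPM (37.2 to 42.1, 999 UMIs) in Foxr2 p53LOF and 2.36 CPM (1.87 to 2.95, 78 UMIs) in Foxr2 alone, a log2 ratio of 4.07 (3.74 to 4.42). No other member was called in this direction.

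Cartpt encodes the CART peptide, linked to feeding and reward. It stood at 12.8 CPM (11.5 to 14.3) in Foxr2 p53LOF and 7.02 CPM (6.14 to 7.98) in Foxr2 alone, a log2 ratio of 0.87 (0.62 to 1.12), within 2-fold. A single nucleus held 162 of the 324 UMIs in Foxr2 p53LOF, and without the richest nucleus of each library the ratio was -0.04 (-0.35 to 0.26). Nts encodes neurotensin, which modulates dopamine neurons. It stood at 5.35 CPM (4.49 to 6.33) and 8.59 CPM (7.62 to 9.65), a log2 ratio of -0.68 (-0.99 to -0.38), under the minimum of 10 CPM. A single nucleus held 168 of the 284 UMIs in Foxr2 alone, and the ratio changed sign to 0.55 (0.18 to 0.93) without the richest nucleus of each library. The Cartpt and Nts ratios thus rested on single nuclei.

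Trh encodes thyrotropin-releasing hormone and Crh encodes corticotropin-releasing hormone, the releasers of the thyroid and stress axes. Trh had 10 UMIs (0.396 CPM, 0.190 to 0.729) in Foxr2 p53LOF and 44 (1.33 CPM, 0.967 to 1.79) in Foxr2 alone, a log2 ratio of -1.75 (-2.90 to -0.74). Crh had 14 UMIs (0.555 CPM, 0.303 to 0.931) and 44 (1.33 CPM, 0.967 to 1.79), a log2 ratio of -1.26 (-2.24 to -0.37). Both were rare in every class of both libraries.

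**Figure D1:**
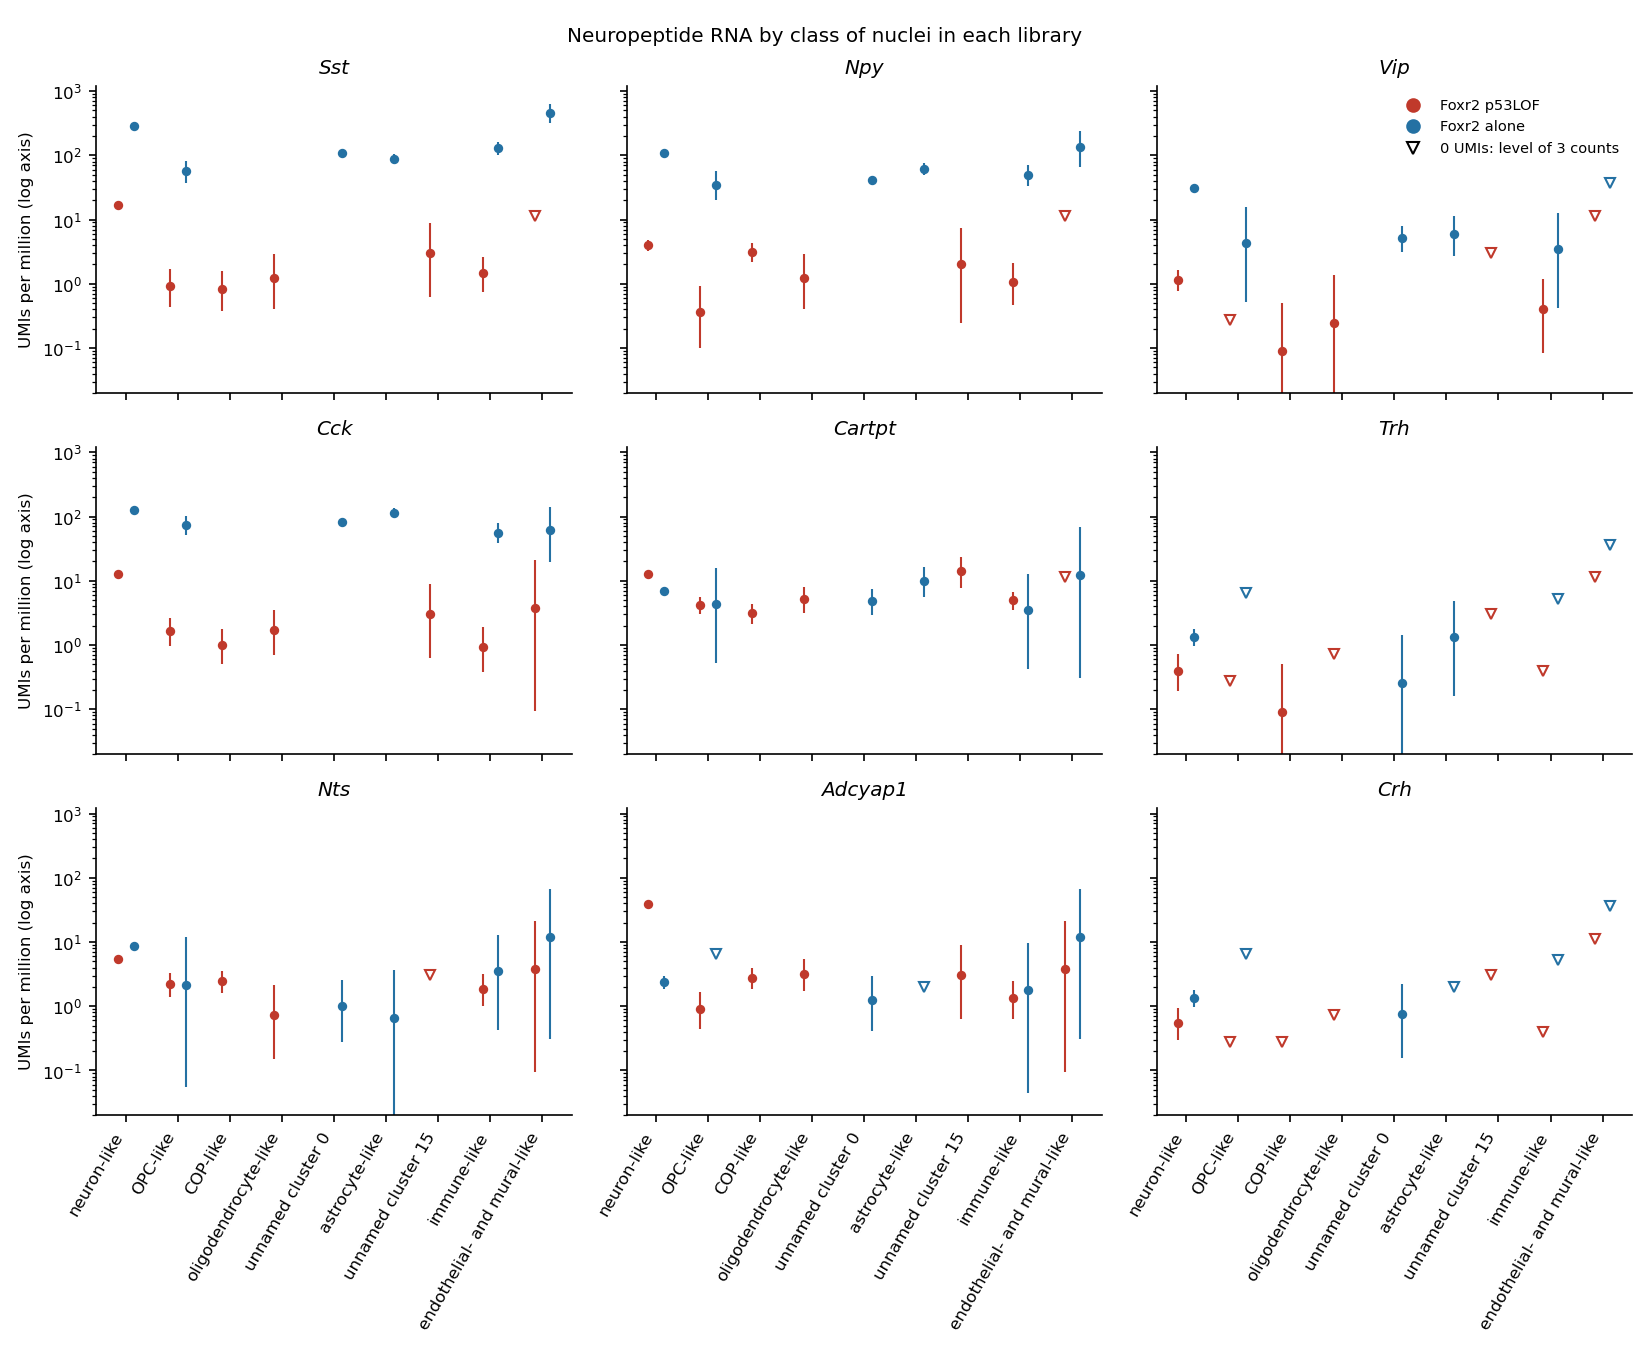
Level of each peptide gene in CPM (log axis) by class of nuclei, for Foxr2 p53LOF (red) and Foxr2 alone (blue), with exact 95% counting intervals and open triangles at the level of 3 counts where no UMI was read. Sst, Npy and Cck stood higher in Foxr2 alone not only in neuron-like nuclei (284.7 against 17.0 CPM for Sst) but also in OPC-like and immune-like nuclei, which came from different clusters in each library, Vip had 2 UMIs in each of those classes of Foxr2 alone, and Adcyap1 stood at 39.6 CPM in Foxr2 p53LOF neuron-like nuclei.

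The Sst and Vip difference was placed in few nuclei. Neuron-like nuclei were subclustered within each library, giving 24 subclusters in Foxr2 p53LOF and 27 in Foxr2 alone, and the values by subcluster are a description with no test. In Foxr2 alone, 463 neuron-like nuclei fell into subclusters named interneuron-like, where Sst stood at 2908 CPM, Npy at 1062 and Vip at 340.5. In the other 3783 neuron-like nuclei Sst stood at 30.9 CPM, Npy at 14.5 and Vip at 1.63, while Cck stood at 130.5, above its 87.8 in the interneuron-like nuclei. In sums over a class, fewer nuclei that make a peptide and less RNA in each cannot be told apart, and no subcluster of Foxr2 p53LOF met the interneuron name.

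Subcluster 23 of Foxr2 alone, 48 MGE-type interneuron-like nuclei or 1.13% of the neuron-like nuclei, held 64.5% of all neuron-like Sst UMIs and 62.4% of those of Npy. Its leading genes included Sox6, Lhx6, Nos1 and Tacr1, given here for identity. Sst stood there at 18734 CPM (18265 to 19211) and Npy at 6800 CPM (6519 to 7089). Sst was read in 47 of its 48 nuclei, with a median of 116.5 and a maximum of 289 UMIs in a nucleus, and Npy in 47 with a median of 37 and a maximum of 164. In 42 of the 48 nuclei both genes had 10 UMIs or more. The median nucleus there held 6628.5 UMIs. Immune-like nuclei of the library, at a median of 1131 UMIs, had an Sst UMI in 10.6% and an Npy UMI in 3.30%, and at most 25 and 14 UMIs in a nucleus.

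Subcluster 12, also MGE-type interneuron-like, with 124 nuclei, came next for Sst at 2028 CPM (1946 to 2112) and held 24.7% of its UMIs, with Npy at 411.8 CPM (375.6 to 450.7). Here Sst reached 10 UMIs in 52 nuclei but Npy in only 11, and both in 10. Across the library 107 neuron-like nuclei held at least 10 Sst UMIs, and 81 of these held at least 3 of Npy, 36 at least 3 of Nos1 and 9 at least 3 of Cort, the cortistatin gene. A single one of the 107 held 3 Vip UMIs or more.

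Vip lay apart from Sst. Subcluster 22, 51 CGE-type interneuron-like nuclei, held 93.8% of Vip UMIs at 2453 CPM (2302 to 2612), with 25 of its nuclei holding a Vip UMI and a maximum of 165. It was second for Npy at 996.8 CPM (901.1 to 1100) with at most 1 Sst UMI in any nucleus, next after 2 cortical subclusters for Cck at 472.0 CPM and first for Crh at 60.3 CPM (38.6 to 89.7, 24 UMIs). Of the 19 neuron-like nuclei with at least 10 Vip UMIs, 18 were in subcluster 22, and 5 of the 19 held at least 3 Cck UMIs, 3 held at least 3 Crh UMIs and none held 3 of Sst.

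Cck was broader than these. Its levels were led by cortical glutamatergic-like subclusters 7 at 742.3 CPM (705.4 to 780.7) and 13 at 653.2 CPM (609.1 to 699.6), with a Cck UMI in 205 of 217 and 109 of 117 nuclei. The cortical glutamatergic-like nuclei as a whole stood at 295.0 CPM, against 21.0 and 22.02 in Drd1 and Adora2a striatal projection-like nuclei. In cortical glutamatergic-like nuclei Sst stood at 26.3 CPM and Npy at 15.5.

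Other members of Foxr2 alone had small peaks. Cartpt was led by the unnamed subcluster 5 at 44.4 CPM (35.9 to 54.3), with a UMI in 53 of 258 nuclei and at most 7. Nts was led by the Adora2a striatal projection-like subcluster 1 at 86.5 CPM, where a single nucleus gave 168 of 229 UMIs and also held 13 Cartpt UMIs, the maximum for that gene in the library. Adcyap1 was led by cortical glutamatergic-like subclusters 10 at 22.3 CPM (15.9 to 30.3) and 17 at 22.3 CPM (14.0 to 33.7), which together gave 62 of the 78 neuron-like UMIs. Trh had its most UMIs in the telencephalic interneuron-like subcluster 15, at 39.9 CPM, of which a single nucleus gave 13 of 16.

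In Foxr2 p53LOF the peptides lay in other kinds of neuron. Adcyap1 was led by the unnamed subcluster 4, which Sim1 and Sfta3-ps marked, at 202.2 CPM (175.6 to 231.6) with a UMI in 86 of 137 nuclei. It was followed by subclusters 3 at 133.3 CPM (115.2 to 153.5), led by Lmx1a, and 2 at 109.7 CPM (96.0 to 124.9). Their intervals overlapped between subclusters 3 and 2 and not between 4 and 3. No nucleus held more than 14 Adcyap1 UMIs.

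Sst in Foxr2 p53LOF was led by the unnamed subcluster 14, marked by Pax7, at 239.3 CPM (198.9 to 285.5), with 11 of 52 nuclei holding all of its 123 UMIs and at most 32 in a nucleus. The midbrain or hindbrain GABAergic-like subcluster 0 held another 138 UMIs at 30.3 CPM and 55 of the 101 Npy UMIs at 12.1 CPM (9.11 to 15.7). Of the 9 nuclei with at least 10 Sst UMIs, none held 3 Npy UMIs and 4 held at least 3 of Nos1. Vip was led by the unnamed subcluster 15, marked by Pax3, at 75.6 CPM (49.0 to 111.7), which gave 25 of 29 UMIs over 14 of its 39 nuclei.

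Cck reached no more than 48.9 CPM (25.3 to 85.5) in any Foxr2 p53LOF subcluster, and 26.8 CPM over the dopamine-like nuclei. Nts was led by the unnamed subcluster 8, also marked by Sim1, at 47.6 CPM (34.2 to 64.6), with a UMI in 24 of 102 nuclei and at most 4. Cartpt was read at 47.6 CPM (35.2 to 63.0) in subcluster 4 and 36.0 CPM (24.5 to 51.1) in subcluster 8, in 40 of 137 and 24 of 102 nuclei, and no nucleus of either held more than 2. Its 85.3 CPM in subcluster 2 came to 162 of 178 UMIs from a single nucleus of 15078 UMIs. Npy in subclusters 4 and 8 stood at 18.5 CPM (11.1 to 28.8) and 15.1 CPM (8.04 to 25.8). Adcyap1 in subcluster 8 stood at 101.1 CPM (81.0 to 124.7), while Nts in subcluster 4 had 7 UMIs at 6.80 CPM (2.74 to 14.0). The Sim1-marked subclusters thus shared Adcyap1, Cartpt and Npy, which other subclusters also held. Nts was higher in subcluster 8 than in 4, and subcluster 8 held 41 of the 135 neuron-like Nts UMIs.

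**Figure D2:**
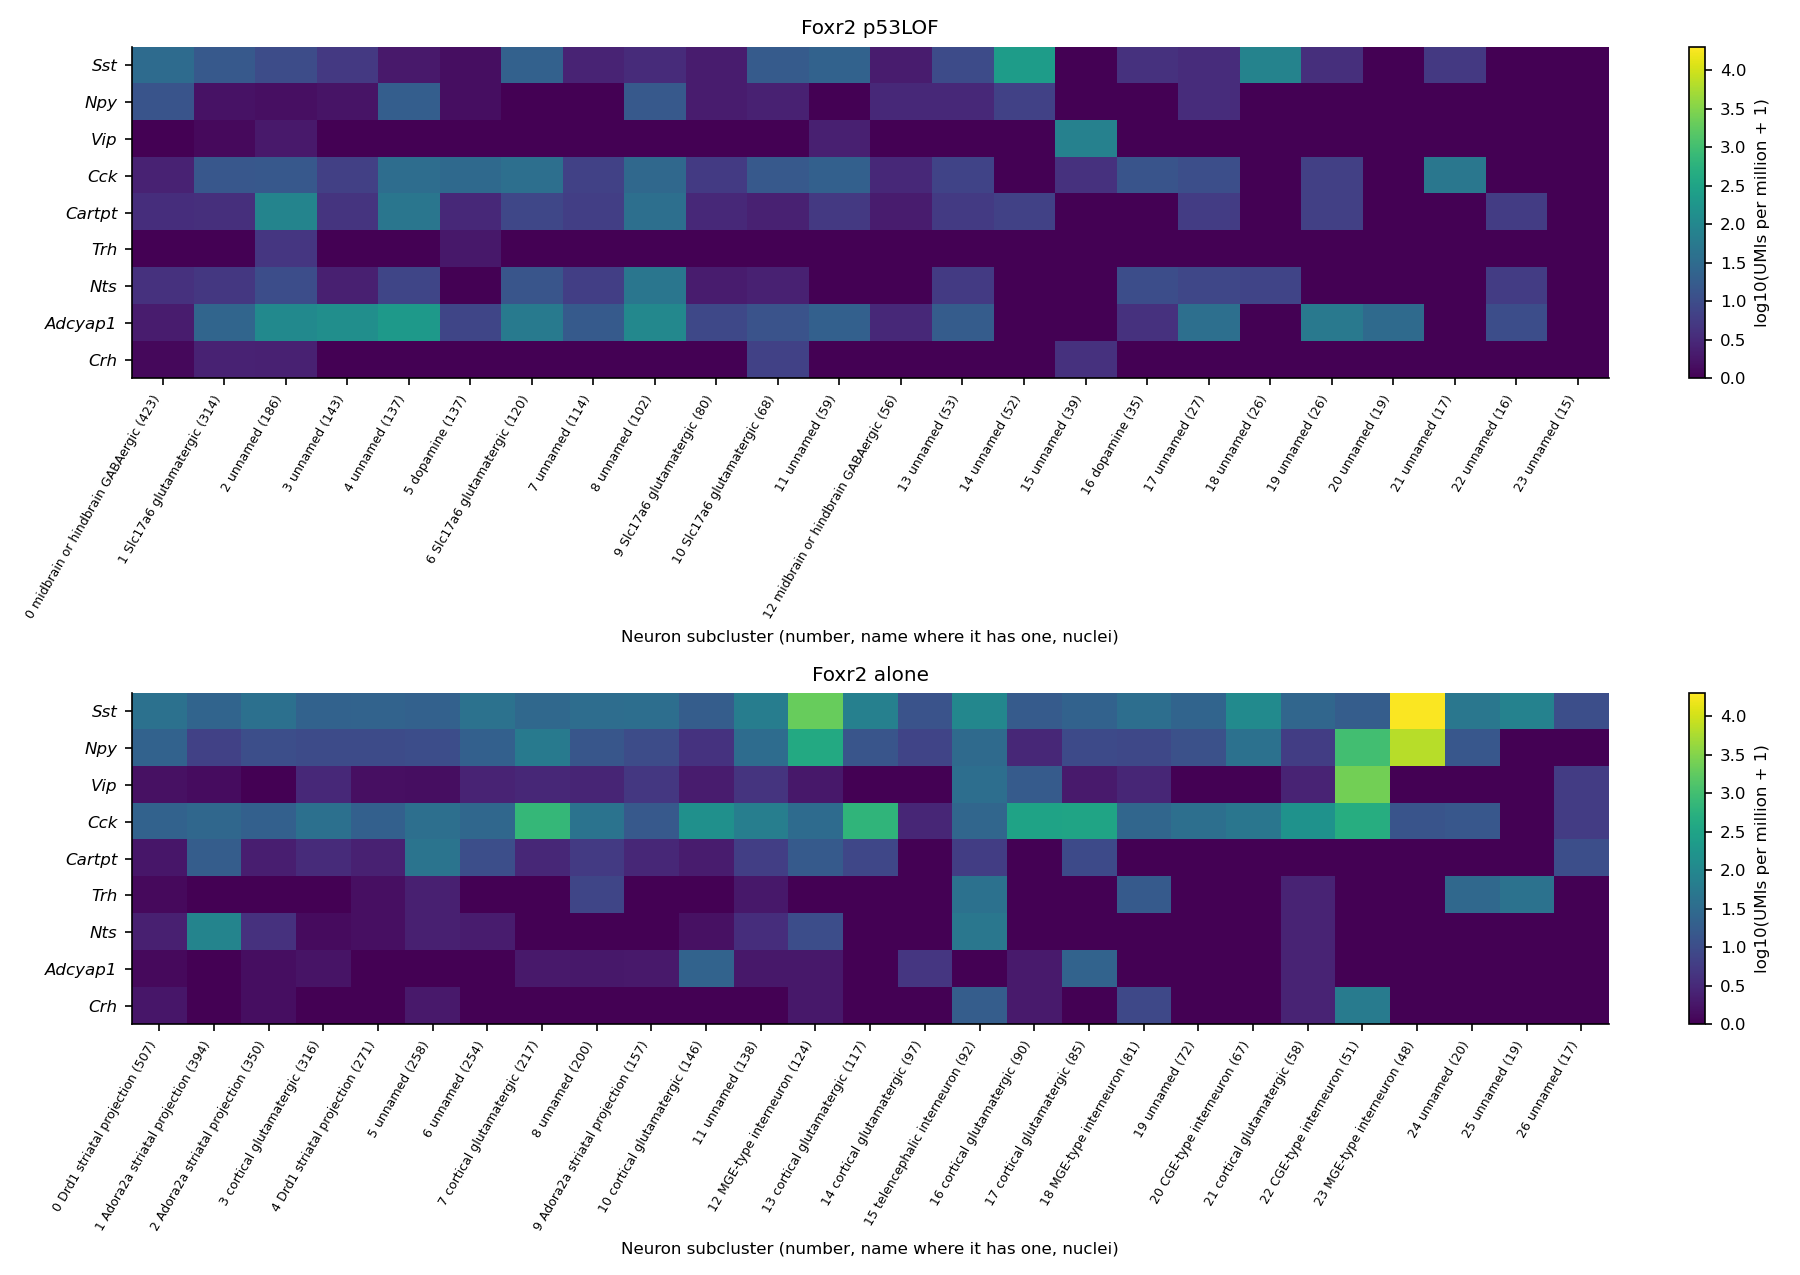
Colour gives log10 of CPM plus 1 for each gene (rows) in each neuron subcluster (columns, with the number of nuclei in brackets) of Foxr2 p53LOF and Foxr2 alone. In Foxr2 alone Sst and Npy peak in subcluster 23 (18734 and 6800 CPM) and Vip in subcluster 22 (2453 CPM), and in Foxr2 p53LOF Adcyap1 peaks in subcluster 4 (202.2 CPM).

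The genes whose levels ran most like a member's over subclusters were taken by Pearson's r of log2(CPM + 1), as a description over 24 or 27 points that share a library and differ in depth. In Foxr2 alone, Sst ran most like Crhbp (r = 0.88), Nxph2 (0.84) and Sox6 (0.76), and Npy most like Cort (0.77), Ccdc120 (0.75) and Sst (0.73). Vip ran most like Sema3c (0.66), Gm29266 (0.65) and Frem1 (0.62), and Cck most like Runx2 (0.78), C1ql3 (0.78) and Id2 (0.77). Cartpt ran most like Gm13780 (0.64), Hemk1 (0.61) and Ccdc130 (0.61), and Nts most like Klhl1 (0.53), Gm6729 (0.53) and Bmp6 (0.52). In Foxr2 p53LOF, Adcyap1 ran most like Slc17a6 (0.86), the glutamate transporter of many subcortical neurons, followed by Gas2 (0.80) and Cacna2d1 (0.79). Cck ran most like Calb1 (0.76), St8sia3os (0.74) and 1700093J21Rik (0.74), and Nts most like Arhgap36 (0.70), Lrch1 (0.70) and Unc5b (0.69). Sst ran most like Gm20754 (0.72), Ptprm (0.70) and Angpt1 (0.70), and Npy most like Pik3c2b (0.74), Mamdc2 (0.73) and Nkx2-1 (0.70).

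Peptide RNA was concentrated in the richest nuclei. Among genes with at least 300 UMIs in neuron-like nuclei, the share held by the richest 1% of nuclei was 8.76% for the median gene in Foxr2 p53LOF and 10.8% in Foxr2 alone. In Foxr2 alone 3 of the 4 members with enough UMIs had 50% or more in the richest 1%, beside 0.312% of 9950 genes, and in Foxr2 p53LOF 2 of 4, beside 0.150% of 8653. Vip had 98.3%, Npy 70.8% and Sst 69.3% in Foxr2 alone, ranking 2, 7 and 10 among the 9950 genes. In Foxr2 p53LOF Cartpt had 67.9% and Sst 64.0%. Cck had 18.9% and 26.5% and Adcyap1 19.4%, so these were spread over more nuclei, though still above the median gene.

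The number of nuclei that held 50% of a gene's UMIs in Foxr2 alone was 6 for Vip, 23 for Npy, 25 for Sst and 185 for Cck. In Foxr2 p53LOF it was 1 for Cartpt, 13 for Sst, 60 for Cck and 105 for Adcyap1. Of the neuron-like nuclei with any Sst UMI in Foxr2 alone, 541 of 777 held only 1. The rich and the poor nuclei therefore differed by up to 289 UMIs for the same gene in the same class.

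**Figure D3:**
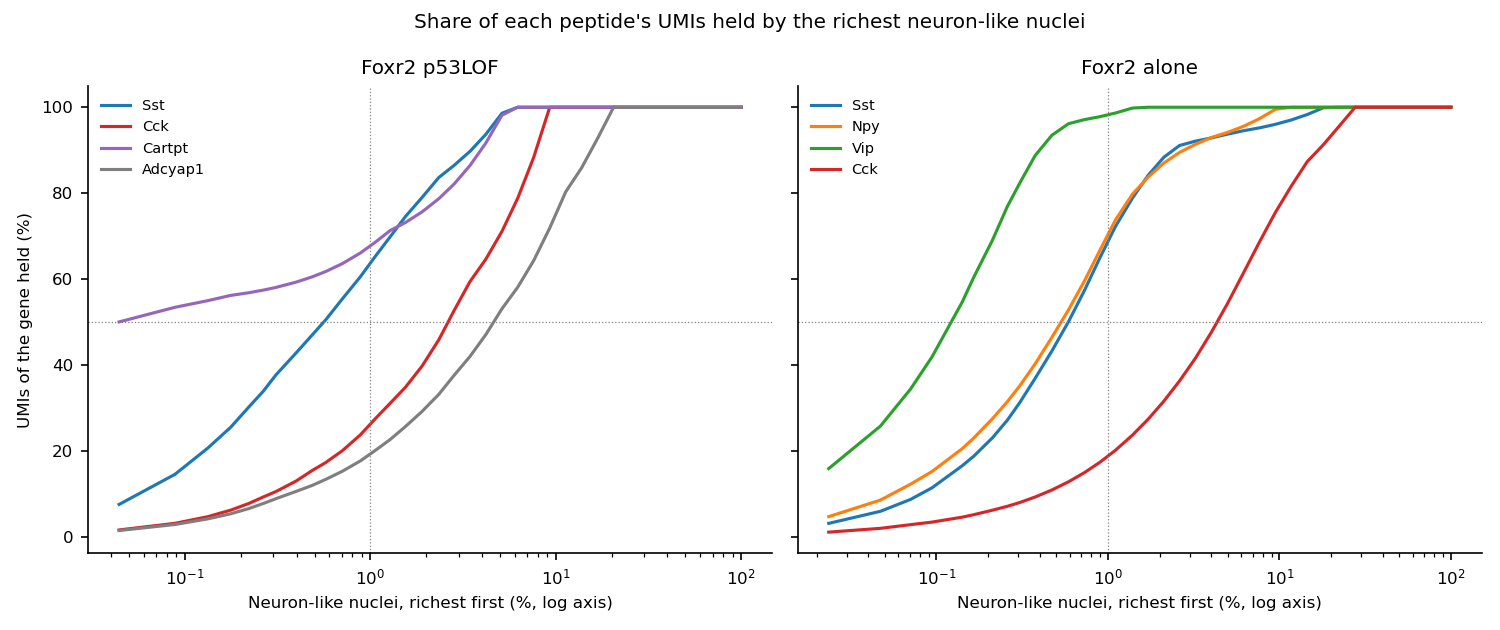
Percent of a gene's neuron-like UMIs (vertical axis) held by the richest percent of neuron-like nuclei (horizontal log axis), for members with at least 300 UMIs in Foxr2 p53LOF (left) and Foxr2 alone (right), with dotted lines at 1% and 50%. In Foxr2 alone Vip reaches 98.3% at the 1% line, in Foxr2 p53LOF Cartpt starts at 50% with a single nucleus, and Cck and Adcyap1 stay under 50% at the 1% line.

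Outside neurons, Foxr2 alone held Sst, Npy and Cck RNA in every class, and the non-neuronal levels of these 3 in Foxr2 p53LOF were lower. All non-neuronal nuclei of Foxr2 alone stood at 106.1 CPM for Sst (98.4 to 114.3), 47.0 for Npy (41.9 to 52.6), 86.4 for Cck (79.4 to 93.8) and 5.04 for Vip (3.47 to 7.07). In Foxr2 p53LOF the same 4 stood at 1.12 (0.797 to 1.53), 1.52 (1.14 to 1.99), 1.35 (0.993 to 1.80) and 0.144 (0.0467 to 0.335). Of genes with at least 10 CPM in neuron-like nuclei 70.6% in Foxr2 alone and 72.3% in Foxr2 p53LOF reached at least 50% of the neuron-like level in immune-like nuclei. None of the 4 members at that level in Foxr2 alone did, with Npy at 46.1%, Sst at 45.1%, Cck at 44.4% and Vip at 11.2%, and none of the 4 in Foxr2 p53LOF, with Cartpt at 38.5%, Sst at 8.66%, Cck at 7.26% and Adcyap1 at 3.37%. Cartpt passed the mark at 68.6% without the richest nucleus of each class, where its neuron-like level was 6.43 CPM, and unnamed cluster 15 of that library stood at 14.2 CPM (7.76 to 23.8), with an interval overlapping that of the neuron-like nuclei. Other classes of Foxr2 alone came nearer to neurons. Cck stood at 91.2% of the neuron-like level in astrocyte-like, 64.5% in cluster 0 and 58.2% in OPC-like nuclei, and Npy at 57.2% in astrocyte-like nuclei. Cartpt, under 10 CPM in neuron-like nuclei of this library, stood at 9.96 CPM (15 UMIs) in astrocyte-like against 7.02 in neuron-like nuclei. That log2 ratio was 0.51 (-0.36 to 1.26). In Foxr2 p53LOF, where 65.6% of the Npy UMIs were in neuron-like nuclei, Npy stood at 3.10 CPM in COP-like nuclei, 77.4% of the neuron-like level (log2 -0.37, -0.97 to 0.20), and at 58.8% without the richest nucleus of each class.

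By class in Foxr2 alone, Sst stood at 128.4 CPM (100.7 to 161.5) in immune-like nuclei, 109.0 (98.9 to 119.8) in unnamed cluster 0, 87.0 (72.7 to 103.2) in astrocyte-like and 56.4 (36.8 to 82.6) in OPC-like nuclei. The intervals of neighbours in this order overlapped. The 450.2 CPM of the 29 vessel-like nuclei rested on a single nucleus with 34 of 37 UMIs. A single immune-like nucleus held 25 of the 73 Sst and 14 of the 28 Npy UMIs of its class, and without it Sst stood at 84.7 CPM (62.4 to 112.3), below cluster 0, and Npy at 24.7 CPM in place of 49.3. In the Drd1 and Adora2a striatal projection-like nuclei Sst stood at 33.4 and 30.9 CPM, and Drd1 subcluster 0 held 4 nuclei with at least 10 Sst UMIs, with a maximum of 35.

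The mixture was measured as the percent of Npy among Npy and Sst UMIs together. It was 26.6% (25.7 to 27.6) in subcluster 23, 27.3% (23.8 to 31.1) in cluster 0, 27.7% (19.3 to 37.5) in immune-like, 22.9% (12.03 to 37.3) in vessel-like and 38.1% (23.6 to 54.4) in OPC-like nuclei, whose intervals overlapped that of subcluster 23, although the vessel-like value rested largely on the nucleus with 34 Sst UMIs and the immune-like value on the nucleus with 25. The intervals of all non-neuronal nuclei at 30.7% (27.9 to 33.7), astrocyte-like nuclei at 41.3% (34.7 to 48.0), cortical glutamatergic-like nuclei at 37.1% (32.8 to 41.6) and Drd1 striatal projection-like nuclei at 33.7% (28.2 to 39.5) lay above it. Adora2a striatal projection-like nuclei, at 20.3% (15.3 to 26.1), overlapped it, and the interval of all MGE-type interneuron-like nuclei, which include subcluster 23, lay below it at 24.2% (23.4 to 24.96). CGE-type interneuron-like nuclei, which hold their own Npy, stood at 95.0% (92.5 to 96.9). Whether free RNA from rich nuclei gave these counts was not tested.

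Shares of nuclei with a UMI move with depth, so each nucleus was thinned to 1000 UMIs. Before thinning, 18.3% of neuron-like nuclei of Foxr2 alone held an Sst UMI, against 10.6% of immune-like nuclei. Of 4229 neuron-like nuclei that could be thinned 5.15% then held one, against 7.14% of 280 immune-like nuclei and 8.13% of 2104 nuclei of cluster 0, with 144 immune-like, 914 cluster 0 and 17 neuron-like nuclei too shallow to enter. The share of neuron-like nuclei with an Sst UMI was therefore not read as expression. For Npy the thinned shares were 3.43%, 1.79% and 3.66% in the same order, and for Cck 7.92%, 3.21% and 6.75%. In astrocyte-like nuclei the thinned Cck share was 11.1%, above that of the neuron-like nuclei. In Foxr2 p53LOF, Adcyap1 gave 3.98% of thinned neuron-like and 0.169% of immune-like nuclei (20.01% and 0.555% before thinning), and Sst 1.24% and 0.113%.

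**Figure D4:**
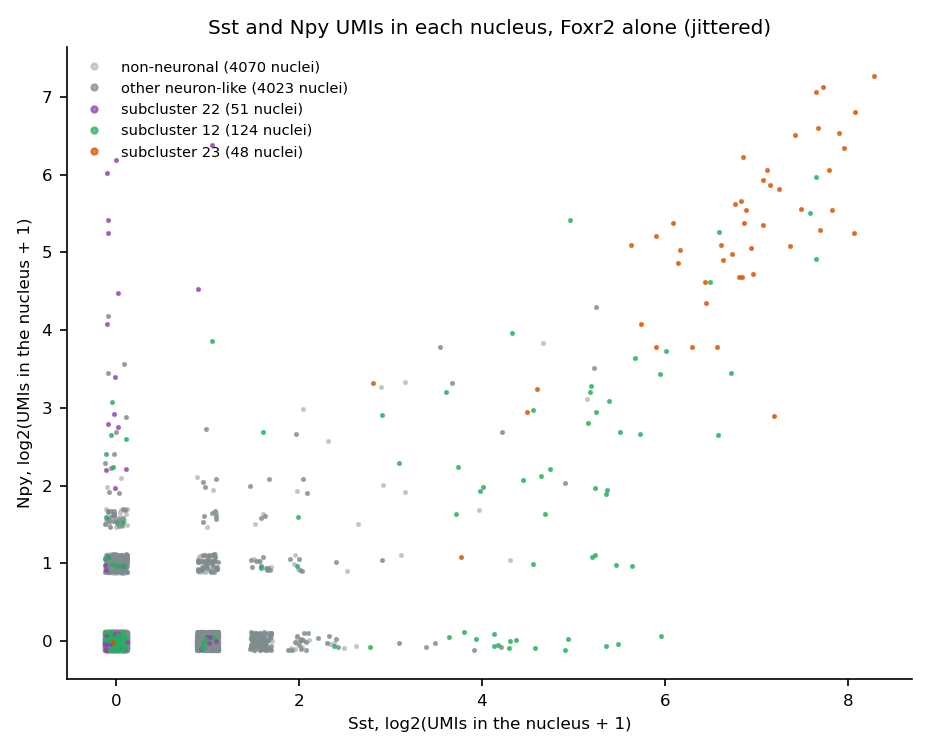
Each point is a nucleus of Foxr2 alone, placed by log2 of Sst UMIs plus 1 (horizontal) and log2 of Npy UMIs plus 1 (vertical), with a small jitter. The 48 nuclei of subcluster 23 sit mostly at the upper right (median 116.5 Sst and 37 Npy UMIs), those of subcluster 22 at the left with Npy and at most 1 Sst UMI, and the non-neuronal nuclei mostly at 0 or 1.

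Nuclei with the vector could be marked by ATAC counts only in Foxr2 p53LOF, where 757 had at least 1 ATAC count on the 2 vector peaks. They were mostly OPC-like (361) and COP-like (321), with 40 immune-like and 15 neuron-like nuclei, and the mark misses nuclei that hold the vector with no such count. With this mark of at least 1 count, the Nts and Npy intervals overlapped those of their own neuron-like levels. The neuron-like levels were 5.35 CPM (4.49 to 6.33) for Nts and 4.0 CPM (3.26 to 4.86) for Npy. Nts had 30 UMIs at 3.84 CPM (2.59 to 5.48), against 1.44 CPM (1.02 to 1.97) in the 5353 non-neuronal nuclei without vector counts, a log2 ratio of 1.42 (0.68 to 2.14). Those 30 UMIs came from 13 nuclei, and 4 of them held 18. The overlap for Nts depended on the mark. In the 632 nuclei with at least 2 vector counts, Nts stood at 2.72 CPM (1.61 to 4.31, 18 UMIs), below its neuron-like interval. Npy stood at 2.57 CPM in those nuclei, with an upper limit of 4.12, and still overlapped. Of the 30, 27 lay in clusters 5 and 6, as did 24 of the 39 Nts UMIs of nuclei without vector counts. These clusters held 321 and 359 of the vector nuclei, while only 12 of 1525 oligodendrocyte-like and 40 of 1803 immune-like nuclei had vector counts. The ratios given here therefore compare groups that differ in class, and none was taken within these clusters. Npy had 20 UMIs at 2.56 CPM (1.56 to 3.95) against 1.22, a log2 ratio of 1.07 (0.19 to 1.92), but a single COP-like nucleus held 10 of the 20.

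Cartpt went the other way, at 2.43 CPM (1.46 to 3.79, 19 UMIs) in vector nuclei and 4.98 (4.17 to 5.89) in the others, a log2 ratio of -1.03 (-1.81 to -0.34), although the UMIs per 1000 nuclei were 25.1 and 25.2. Sst, Cck and Adcyap1 had 5, 14 and 14 UMIs there, at 0.639, 1.79 and 1.79 CPM, and the intervals of the 3 ratios included 0. Vip, Trh and Crh had none, with an exact upper limit of 0.472 CPM. The vector nuclei held a median of 8943 UMIs and the others 3180. With at least 3 GFP UMIs in place of vector counts, 1868 nuclei were marked, among them 153 of 2264 neuron-like and 178 of 1803 immune-like nuclei. Since immune-like nuclei were marked too, the GFP mark alone does not tell which neurons hold the vector. In the marked nuclei Nts stood at 2.64 CPM (1.99 to 3.45) and Npy at 2.25 CPM (1.65 to 3.01), both below their neuron-like intervals. Adcyap1 stood there at 5.09 CPM and Sst at 2.25 CPM. A single nucleus held 21 of those 46 Sst UMIs. Among non-neuronal nuclei alone, the 1715 with at least 3 GFP UMIs against the 4380 with fewer gave log2 ratios of -1.15 (-2.23 to -0.14) for Sst, 0.51 (-0.24 to 1.28) for Adcyap1, 1.47 (0.54 to 2.50) for Npy, 0.76 (0.01 to 1.54) for Nts and -0.34 (-0.82 to 0.14) for Cartpt, whose interval then included 0. A single nucleus held 10 of the 40 Npy UMIs of the marked nuclei. Among the 98 nuclei of Foxr2 alone with at least 3 GFP UMIs, of which 53 were neuron-like, Sst stood at 49.2 CPM (32.7 to 71.2), Npy at 24.6 (13.5 to 41.3) and Cck at 96.7 (72.9 to 125.9), and Vip, Nts and Crh had no UMI.

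Accessible chromatin at the start sites was read as called peaks within 1000 bases. In Foxr2 p53LOF 5 of the 9 members had one, beside 59.6% of 32195 genes, in Foxr2 alone 5, beside 58.6%, and in replicate 2 of Foxr2 alone 4, beside 56.8%. These shares are near those of all genes. Npy, Cck, Cartpt and Crh had a peak in all 3 lists, and Sst, Vip and Adcyap1 in none, even in the library where their RNA was high. A peak near Nts was called only in Foxr2 p53LOF and one near Trh only in the first library of Foxr2 alone, not in replicate 2. Peaks were called on all nuclei of a library together.

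The Npy peak of Foxr2 alone, chr6:49822069-49822985, took in the whole Npy promoter printed above, and that of Foxr2 p53LOF was chr6:49822076-49823018. Windows were set around the starts given with the deposited counts, and distances were measured to the gene start of a reference annotation. The Cartpt peak of Foxr2 p53LOF, chr13:99900170-99901058, took in the printed Cartpt promoter with its TGACGTCA. The annotated Cartpt start, which differs from the RefSeq start, lay 33 bases outside the peak. The Nts peak, chr10:102489980-102490800, took in the printed Nts promoter. For Cck the nearest peak lay 904 bases downstream of the annotated start in Foxr2 p53LOF and at -328 bases, upstream of it, in Foxr2 alone. The Cck counts in these 2 libraries thus came from different elements. In replicate 2 of Foxr2 alone the Cck peak lay 843 bases downstream and overlapped that of Foxr2 p53LOF, so the difference did not follow genotype.

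Counts in these peaks were compared between neuron-like nuclei with and without the RNA, which 5 combinations of gene and library allowed. Each ATAC fragment gives up to 2 counts, which makes the intervals too narrow. In Foxr2 alone, the 125 neuron-like nuclei with at least 3 Npy UMIs had 18.3 ATAC CPM, counts scaled to the peak counts of the same nuclei (12.8 to 25.3), and the 3827 with none had 3.05 (2.60 to 3.55), a log2 ratio of 2.59 (2.02 to 3.11). For Cck, 468 nuclei had 10.6 (8.34 to 13.2) and 3114 had 1.41 (1.07 to 1.81), a log2 ratio of 2.91 (2.40 to 3.42). For Nts in Foxr2 p53LOF, 14 nuclei had 32.3 (8.79 to 82.6) from 4 counts and 2178 had 1.08, a log2 ratio of 4.90 (2.89 to 6.48). For these 3, promoter counts were higher in the nuclei with more RNA.

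For Cck in Foxr2 p53LOF the 26 nuclei with at least 3 UMIs had 1 ATAC count, a log2 ratio of -0.17 (-5.49 to 2.34), and for Cartpt in Foxr2 alone 19 nuclei had 2, a log2 ratio of 1.26 (-1.80 to 3.13), so no difference was detectable at this depth. Npy counts were led by subcluster 23 in Foxr2 alone at 20.01 CPM, the same subcluster as its RNA. In every other combination of gene and library with a peak, the subcluster that led the counts was not the one that led the RNA. For Cck in Foxr2 alone they were 13 and 7, for Cartpt in Foxr2 alone 15 and 5, and for Nts in Foxr2 p53LOF 15 and 8. Leaders were ranked by level without intervals, for counts only over subclusters of at least 30 nuclei. The RNA leaders of Cck in Foxr2 p53LOF (subcluster 21, 17 nuclei) and Trh in Foxr2 alone (25, 19 nuclei) could therefore not match. The next RNA leaders there were 6 and 15, while 8 and 14 led the counts. For Cartpt in Foxr2 p53LOF the RNA leader rested on a single nucleus. Crh, with hardly any RNA, had 12.7 ATAC CPM in the neurons of Foxr2 p53LOF and 8.33 in those of Foxr2 alone, against 5.41 and 4.29 in non-neuronal nuclei. The 5 members with a peak in Foxr2 p53LOF all had more counts in neuron-like than in non-neuronal nuclei, beside 52.7% of 19192 genes with a peak, and so had the 5 in Foxr2 alone, beside 38.2% of 18851, with log2 ratios from 0.76 (Nts, Foxr2 p53LOF, 0.05 to 1.45) to 3.32 (Cck, Foxr2 alone, 2.31 to 4.56).

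**Figure D5:**
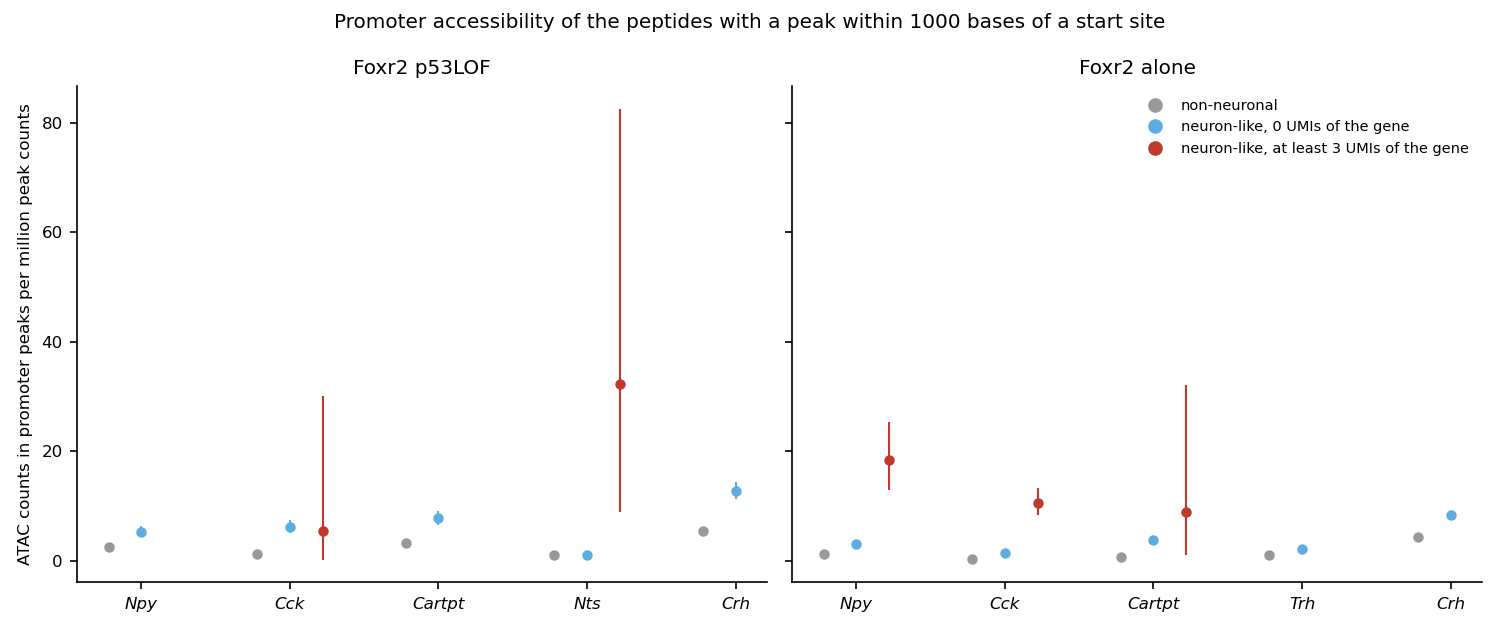
ATAC counts in the peaks within 1000 bases of a start site, as CPM of all peak counts, for non-neuronal nuclei (grey), neuron-like nuclei with no UMI of the gene (blue) and neuron-like nuclei with at least 3 UMIs (red, drawn where there were at least 10 such nuclei), with exact 95% counting intervals. Red lies above blue for Npy (18.3 against 3.05) and Cck (10.6 against 1.41) in Foxr2 alone and for Nts (32.3 against 1.08) in Foxr2 p53LOF.

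The partners of the peptides were taken from lists of receptors, processing and vesicle genes, and other peptides. Of the 22 genes in the receptor list, which also holds a binding protein, 7 reached 10 CPM in neuron-like nuclei. Among these, 2 were higher in Foxr2 p53LOF and 3 lower, beside 13.4% and 18.9% of all genes. Their median log2 ratio was -0.38, beside -0.05 over all genes. Trhr, the receptor of Trh, was higher (13.95 against 2.84 CPM, log2 2.29), and so was Crhr1, the receptor of Crh (12.9 against 3.48 CPM, log2 1.89). Vipr1, a receptor of VIP and PACAP (0.991 against 16.1 CPM, log2 -4.02), Ntsr2, of neurotensin (1.19 against 13.2 CPM, log2 -3.47), and Cckbr, of cholecystokinin (7.73 against 16.3 CPM, log2 -1.08), were lower. Adcyap1r1, the PACAP receptor, was within 2-fold (58.1 against 38.8 CPM, log2 0.58), although its ligand gene differed 16.8-fold.

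All 16 processing and vesicle genes reached 10 CPM, and 12 were within 2-fold, beside 7178 of 10603 genes, with a median log2 ratio of 0.29. These counts are near those of all genes. The convertase Pcsk2 (log2 -1.61), the granin Chgb (-1.32) and the convertase inhibitor Pcsk1n (-1.07) were lower in Foxr2 p53LOF and Syt4, a vesicle synaptotagmin, was higher (1.30). Of the 29 genes in the list of other peptides, which also holds a receptor and a neurexophilin, 6 reached 10 CPM, 5 lower and 1 higher. The shares over all genes were 18.9% and 13.4%. Penk (26.9 against 632.6 CPM, log2 -4.55), Tac2 (-4.07), Tac1 (-3.73) and Pdyn (-3.34), peptides of striatal and interneuron types among others, were the 4 lowest, and Agrp followed at -1.15, named after its value was seen. Without the 10 nuclei richest in it Tac2 stood at 7.40 CPM in Foxr2 alone and had no UMI in Foxr2 p53LOF, under the minimum, so its call was lost. Pomc, the precursor of melanocortins and beta-endorphin, was higher (395.4 against 0.938 CPM, log2 8.72), with 87.4% of its UMIs in 10 nuclei and 3821 in a single nucleus, and at log2 6.29 without the 10 richest nuclei of each library.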

How the data were processed

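Nuclei of frozen mouse brain tissue, labelled as brain tumor in both genotypes, were profiled with the 10x Multiome kit. For each library whose counts were analysed here, the authors deposited raw counts of UMIs per gene, intronic reads included, and of transposition events per peak, made with Cell Ranger ARC 2.0.0 on mm10 with the vectors added. Totals were 96929539 UMIs (Foxr2 p53LOF) and 59719847 (Foxr2 alone), and 0 columns were left unused.

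Barcodes with at least 400 genes, 400 fragments and at most 5% mitochondrial UMIs, within the study's upper limits, were kept (8712 and 8856), and 353 and 540 doublets were removed with Scrublet. Peak counts were divided by 2 to stand for fragments. Leiden clustering (resolution 0.5, 2000 variable genes, 30 components, 20 neighbours, seed 100) left out 76 peptide-related genes, and neuron-like nuclei were subclustered at resolution 1. Names came from marker lists. CPM and ratios carry exact Poisson limits and shares exact Clopper-Pearson limits at 95%. A level of 0 was set at 3 counts in the figure of levels by class and in the ratios over all genes. No test was made, since counts of 1 library a genotype were analysed here. The scripts were tested on simulated data. Python 3.11.15, scanpy 1.11.5, leidenalg 0.10.2 and scipy 1.17.1 were used.

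All 9 members were named. Pathway genes were named where past 2-fold with at least 10 CPM in a library, at most 4 a list and direction, and likeness genes were the first 3 by r among genes with at least 100 UMIs. Genes that mark a subcluster and those within 2-fold were named after their values were seen. The members and lists were chosen with earlier results of these data known. The genes most like Cartpt in Foxr2 p53LOF are not reported here. Alternatives changed the filters, doublets, resolution, fragment limits, depth, scaling, neuron definition, richest nuclei, vector mark, peak window and fold.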

Additional observations from a re-analysis of the deposited data

How the results depend on the processing

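No member's ratio between the libraries that was called changed direction under the alternatives run. Log2 ratios ranged from -4.51 to -3.83 for Sst, -4.91 to -3.94 for Npy, -4.87 to -4.13 for Vip, -3.42 to -2.71 for Cck and 3.73 to 5.10 for Adcyap1. Those of Cartpt (-0.04 to 1.29) and Nts (-0.75 to 1.51) crossed 0. The members higher in Foxr2 p53LOF numbered 2 in place of 1 with fragment limits applied to peak counts as deposited and 2 with nuclei thinned to 1000 UMIs, where Cartpt joined at 1.17 and 1.29, and the cause was not tested. At 4-fold, 1 receptor in place of 2 was higher, and 0 processing genes were higher and 0 lower, by the stricter fold itself. Leaving out the richest nucleus of each library or class, leaving out the richest 10 for pathway genes, and marking GFP nuclei among non-neuronal ones alone were chosen after seeing the data. No paired analysis was possible because counts of 1 library per genotype were analysed here and no test was made, and leaving out a replicate could not be done for the same reason. Depth limits Trh, Crh and Vip in Foxr2 p53LOF, with 10, 14 and 29 UMIs in neuron-like nuclei.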

Other observations

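Barcodes left out by the filters or as doublets numbered 2020 in Foxr2 p53LOF and 1780 in Foxr2 alone. In those of Foxr2 alone Sst stood at 168.6 CPM and Npy at 64.1 CPM. In those of Foxr2 p53LOF Cartpt stood at 11.4 CPM and Adcyap1 at 9.07 CPM, and in the 251 of them with under 1000 UMIs Cartpt had 18 UMIs at 123.8 CPM and Adcyap1 had none.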
